A study of Mus musculus with 18 samples.

Results

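Fatty acid oxidation and the targets of the PPAR receptors were followed through 9 genes in sorted beta cells of mouse islets. The 9 were taken by name: Ppara, Cpt1a, Cpt2, Acadl, Hadha, Hadh, Pdk4, Acot1 and Ucp2. Each was found in the deposited counts table by its Ensembl ID, named with GENCODE release M21, and all 9 of the 53090 IDs in the table passed the filter on low counts that left 19284 genes for testing. LIRKO mice carry a liver-specific knockout of the insulin receptor, Ctrl mice served as their controls, and both were kept on chow or on HFD, taken to mean a high-fat diet. The groups were LIRKO mice on HFD (n = 3 libraries), LIRKO mice on chow (n = 4), Ctrl mice on HFD (n = 5) and Ctrl mice on chow (n = 6). The promoter behind the liver knockout, the genotype of the Ctrl mice beyond that name, and age, sex, strain, time on the diet, batch and the animal behind each library are not given in the labels. All islets were cultured overnight before they were dispersed, and cells were sorted by light scatter and their own fluorescence.

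Fatty acids enter mitochondria as carnitine esters and are then shortened by repeated rounds of dehydrogenation, hydration, oxidation and cleavage. PPAR alpha is a nuclear receptor that binds fatty acids and switches on many genes of this route, best known in liver and heart. In beta cells, fatty acid oxidation competes with glucose oxidation, and malonyl-CoA made from glucose restrains the entry step.

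Library totals lay between 19490235 and 51714775 counted reads. The 9 beta cell markers summed to between 99357 and 233678 counts per 1000000 reads (CPM, on TMM-scaled library sizes) in the 18 libraries, and all 9 were detected. Markers of adipocytes, cells with strong PPAR programmes, summed to at most 0.622 CPM, and 0 of the 6 passed the filter. Insr, deleted in the liver and so no check of the labels in beta cells, lay between 33.4 and 63.5 CPM. Ctrl HFD replicates 1 and 2 stood apart, with the lowest totals (19490235 and 21590129) and with 1.37% and 1.06% of their counts from the nuclear RNA Malat1, against 0.0866% to 0.6% in the other 16 libraries. LIRKO chow replicates 1 and 2, and replicates 3 and 4, resembled each other more than any other libraries of a group: the spread of the log2 ratio across 12038 genes was 0.0978 and 0.112 for these pairs, against 0.186 for the next closest pair. The counts of these pairs still differed beyond counting noise (chi-square per degree of freedom 6.35 and 8.5). The other pairs within a group had values of 34.5 to 372. A difference beyond counting noise cannot show whether the libraries of a pair come from different animals. Each was kept as 1 library, so the 4 LIRKO chow libraries may stand for fewer animals. No label ties a library to an animal, so p-values reflect only how far these libraries vary, part of which may be technical.

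Hadha, Hadh, Ucp2, Acadl, Cpt2 and Cpt1a were well expressed, and Pdk4, Acot1 and Ppara were low. Per kilobase of merged exon, the mean level over the 18 libraries was 82.8 ± 22.2 CPM for Hadh, 30.9 ± 7.12 CPM for Ucp2, 26.4 ± 4.26 CPM for Acadl and 23.4 ± 3.18 CPM for Cpt2 (SD, n = 18). On the same scale Hadha followed at 14.6 ± 2.21 CPM, Cpt1a at 13.0 ± 3.47 CPM and Pdk4 at 1.56 ± 1.72 CPM, and Acot1 at 0.119 ± 0.0837 CPM lay beside Ppara at 0.116 ± 0.0502 CPM (SD, n = 18). Neighbours in this order whose ranges of 1 SD overlapped were Ucp2 with Acadl, Acadl with Cpt2, Hadha with Cpt1a, Pdk4 with Acot1, and Acot1 with Ppara. Divided by the length of the longest coding transcript instead, Hadha moved to the third place with 31.8 CPM per kilobase, and Hadh stayed first with 230 CPM per kilobase.

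**Figure D1:**
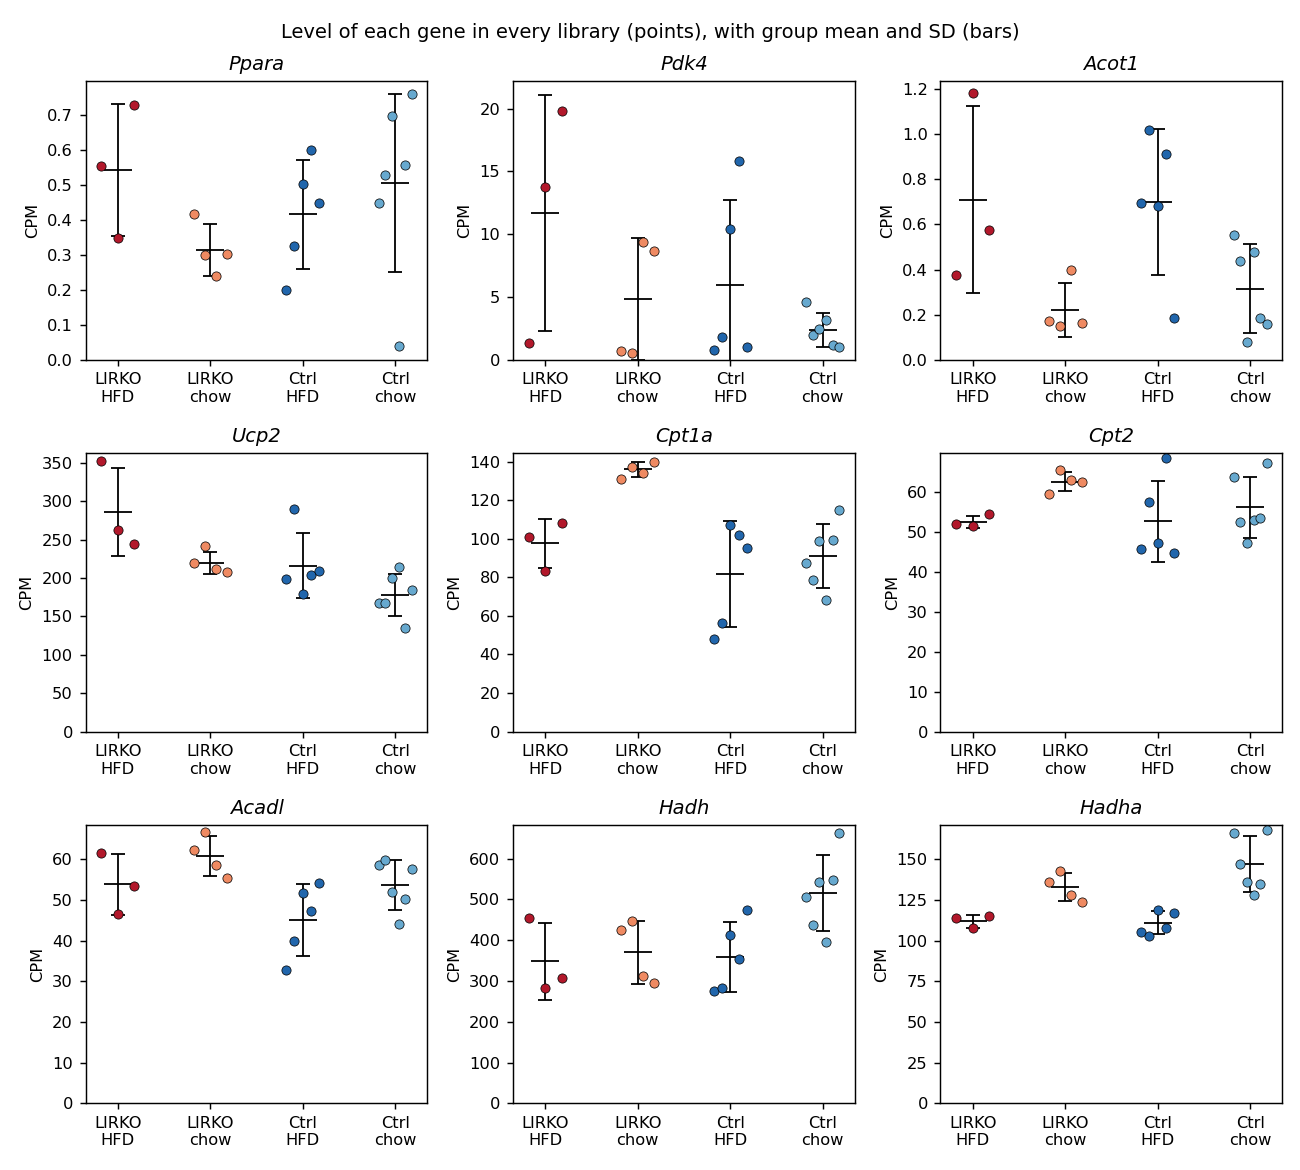
Level in CPM (y axis, linear, from 0) of the 9 genes in the 3 LIRKO HFD, 4 LIRKO chow, 5 Ctrl HFD and 6 Ctrl chow libraries. Points are libraries, the horizontal bars are group means and the vertical bars are 1 SD; Cpt1a in LIRKO chow lies at 131 to 140 CPM, above all Ctrl chow libraries, and Hadha in Ctrl HFD lies at 103 to 119 CPM, below all Ctrl chow libraries.

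Across the 4 comparisons of genotype and diet, 1 of the 36 tests of these genes passed an adjusted p of 0.05, with edgeR's quasi-likelihood test and Benjamini-Hochberg adjustment over all 19284 genes. That was Hadha, which was lower in Ctrl beta cells on HFD than on chow. In that comparison 9.93% of all tested genes passed in either direction and 4.35% as lower, so 1 gene of 9 is near the background; 3 of 9 had an unadjusted p under 0.05, against 34.2% of all genes. For LIRKO against Ctrl on chow, 0 of the 9 passed where 5.15% of all genes did, and 2 of 9 had an unadjusted p under 0.05, against 18.8% of all genes. For LIRKO against Ctrl on HFD, 0 of the 9 passed where 0.508% of all genes did (0.316% higher, 0.192% lower), and 1 of 9 had an unadjusted p under 0.05, against 7.81% of all genes. For HFD against chow in LIRKO, 0 of the 9 passed where 2.03% of all genes did (1.06% higher, 0.975% lower), and 2 of 9 had an unadjusted p under 0.05, against 16.5% of all genes. DESeq2 also passed 0 of the 9 in these 3 comparisons. The interaction, or difference of the genotype effects between HFD and chow, passed 0 of 9 with edgeR and with DESeq2, 0 of 9 had an unadjusted p under 0.05 against 5.52% of all genes, and 0.00519% of all genes passed. Groups did not overlap for 1 of the 9 genes in LIRKO against Ctrl on chow (11.7% of all genes), 0 on HFD (5.01%), 1 in HFD against chow in Ctrl (3.56%) and 4 in LIRKO (34.4%). The median log2 change of the 9 was 0.15 for LIRKO against Ctrl on chow, 0.25 on HFD, −0.16 for HFD against chow in Ctrl and −0.09 in LIRKO, beside −0.023, −0.035, 0.043 and 0.032 over all tested genes in the same 4 comparisons. The 4 comparisons share groups in pairs, so their values are not independent of each other.

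**Figure D2:**
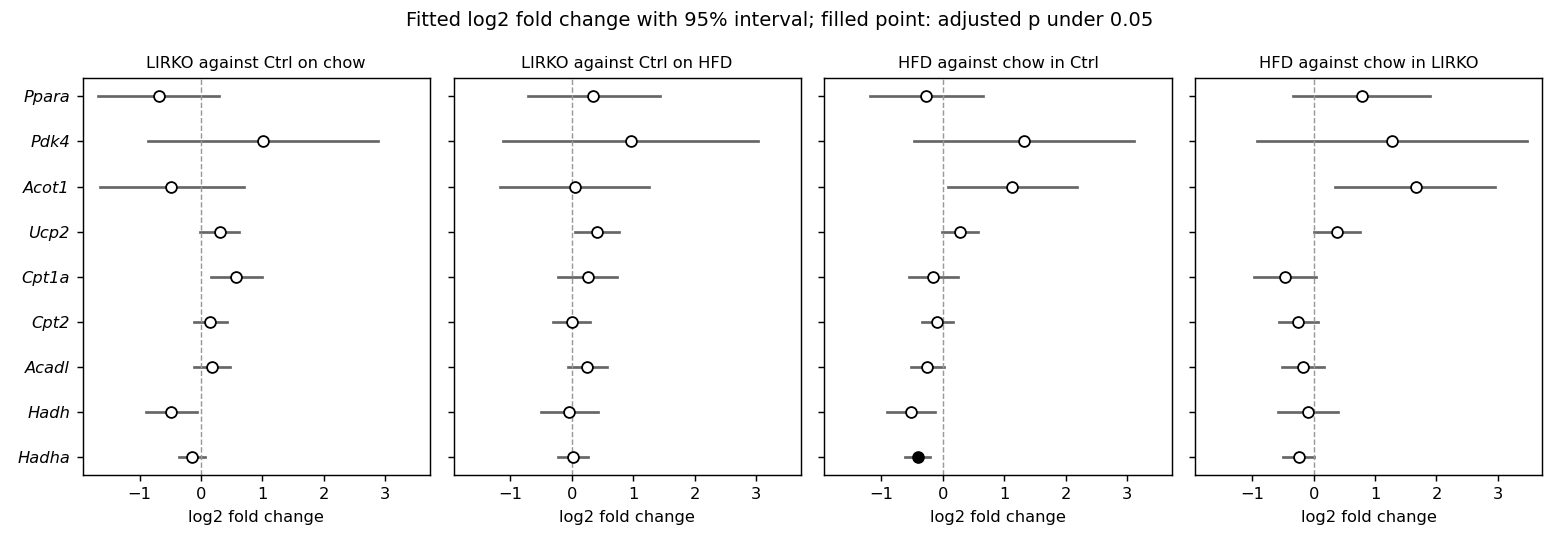
Fitted log2 fold change (x axis) of the 9 genes in 4 comparisons, with the first-named group of each panel title over the second, with lines for the 95% interval. The filled point is Hadha for HFD against chow in Ctrl (−0.41), the value that passed; the intervals of Pdk4, Acot1 and Ppara are the widest.

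Ppara (ENSMUSG00000022383, chr15:85734983-85802819, plus strand, GRCm38) encodes the receptor itself. It was at 0.552, 0.349 and 0.727 CPM in LIRKO HFD, at 0.416, 0.299, 0.24 and 0.302 CPM in LIRKO chow, at 0.199, 0.326, 0.503, 0.598 and 0.449 CPM in Ctrl HFD, and at 0.0399, 0.541 and 0.76 CPM (lowest, median, highest) in Ctrl chow. These levels rest on 1 to 29 reads per library, and the lowest, in Ctrl chow replicate 4, is a single read. All 4 groups overlapped. The log2 change was −0.69 (95% interval −1.67 to 0.29) for LIRKO against Ctrl on chow, 0.35 (−0.72 to 1.43) on HFD, −0.27 (−1.18 to 0.65) for HFD against chow in Ctrl and 0.78 (−0.34 to 1.90) in LIRKO. The adjusted p was 0.46, 0.916, 0.679 and 0.465 in the same order with edgeR, and the intervals are wide enough to hold differences of more than 1 log2 unit.

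Cpt1a (ENSMUSG00000024900, chr19:3322334-3385733, plus strand) encodes the carnitine palmitoyltransferase of the outer mitochondrial membrane, the entry step that malonyl-CoA inhibits. It was at 101, 83.3 and 108 CPM in LIRKO HFD, at 131, 137, 134 and 140 CPM in LIRKO chow, at 47.9, 56.2, 107, 102 and 95.5 CPM in Ctrl HFD, and at 68.4, 93.2 and 115 CPM (lowest, median, highest) in Ctrl chow. Every LIRKO chow library was above every Ctrl chow library, which 6.46% of all tested genes also showed, and every LIRKO HFD library was below every LIRKO chow library, which 18.3% of all genes showed. The 4 LIRKO chow libraries spanned 131 to 140 CPM. Their alpha cell and endothelial marker sums were 411 and 409 CPM, and 18 and 22.1 CPM, in replicates 1 and 2. In replicates 3 and 4 these sums were 1858 and 2030 CPM, and 177 and 152 CPM. The part of these markers in the Cpt1a values was not tested. On chow the mean was 136 ± 3.76 CPM in LIRKO and 91.1 ± 16.5 CPM in Ctrl (SD, n = 4 and 6), a log2 change of 0.57 (SE 0.20, 95% interval 0.16 to 0.99) that did not pass (unadjusted p = 0.00981, adjusted p = 0.111, edgeR). It passed with adjusted p = 0.0163 when only the 2 groups were fitted, with 0.00546 when Ctrl HFD replicates 1 and 2 were left out of the shared spread, and with 0.0475 without Ctrl HFD replicate 1, while summing the LIRKO chow pairs gave 0.513; the log2 change stayed between 0.50 and 0.65 over all 26 alternatives.

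The other comparisons of Cpt1a gave smaller differences. On HFD the means were 97.6 ± 12.9 CPM in LIRKO and 81.7 ± 27.5 CPM in Ctrl (SD, n = 3 and 5), with a log2 change of 0.26 (95% interval −0.22 to 0.73, adjusted p = 0.835, edgeR). Ctrl HFD replicates 1 and 2 held the 2 lowest values of all 18 libraries, and without them that change was −0.06. In Ctrl, HFD against chow gave −0.16 (−0.55 to 0.24, adjusted p = 0.57, edgeR), and 0.20 without the same 2 libraries. In LIRKO, HFD against chow gave −0.47 (−0.98 to 0.03, adjusted p = 0.33, edgeR), which passed as lower (adjusted p = 0.0196) when only the 2 LIRKO groups were fitted. The genes whose centred log2 CPM followed Cpt1a most closely over the 18 libraries were Rhoq, Setd7 and Inpp5b, each with a mean absolute difference of 0.09 log2 units, beside a mean absolute deviation of 0.32 of Cpt1a itself.

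The 250 bases before the RefSeq start of Cpt1a (GRCm38.p6, chr19:3323051-3323300, plus strand) are printed because, among the promoters of the 9 genes, this window is the only one with the core hexamer that PPAR receptors bind. Capitals mark the hexamer AGGTCA, read on the minus strand, 94 bases before the start. The RefSeq start lies inside the GENCODE span of Cpt1a, and so does this window.
Cpt1a: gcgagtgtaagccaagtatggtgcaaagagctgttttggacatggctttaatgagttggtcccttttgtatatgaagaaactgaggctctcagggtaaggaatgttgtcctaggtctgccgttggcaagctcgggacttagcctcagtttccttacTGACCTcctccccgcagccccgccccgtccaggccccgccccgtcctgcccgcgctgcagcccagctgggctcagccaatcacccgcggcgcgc
AGGTCA was searched on both strands of whole RefSeq promoter windows, which may run beyond the 250 bases printed. It stood in 16.3% of 32851 windows and in 1 of the 9. The full element AGGTCANAGGTCA, a pair of hexamers with 1 base between them, which overlaps the search for 1, stood in 0.0396% of all windows and in 0 of the 9.

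Cpt2 (ENSMUSG00000028607, chr4:107903981-107923610, minus strand) encodes the partner enzyme of the inner membrane, which turns carnitine esters back into acyl-CoA. It was at 51.8, 51.5 and 54.3 CPM in LIRKO HFD, at 59.5, 65.3, 62.8 and 62.3 CPM in LIRKO chow, at 45.6, 57.3, 47.1, 68.4 and 44.7 CPM in Ctrl HFD, and at 47.1, 53.2 and 67.1 CPM (lowest, median, highest) in Ctrl chow. LIRKO HFD lay wholly below LIRKO chow, which 18.3% of all tested genes also showed, and the other pairs overlapped. The log2 changes were 0.15 (95% interval −0.11 to 0.42) for LIRKO against Ctrl on chow, −0.00 (−0.30 to 0.30) on HFD, −0.09 (−0.34 to 0.16) for HFD against chow in Ctrl and −0.25 (−0.57 to 0.07) in LIRKO, with adjusted p from 0.415 to 0.998 (edgeR). Cpt2 was the steadiest of the 9, with a highest value 1.53 times its lowest over the 18 libraries. Slc25a20, the carnitine carrier that works between Cpt1a and Cpt2, is described with the wider pathway.

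Acadl (ENSMUSG00000026003, chr1:66830839-66863277, minus strand) encodes a long-chain acyl-CoA dehydrogenase, the first step of each round. It was at 61.6, 46.5 and 53.5 CPM in LIRKO HFD, at 62.2, 66.8, 58.7 and 55.4 CPM in LIRKO chow, at 32.7, 39.9, 51.7, 47.3 and 54.1 CPM in Ctrl HFD, and at 44, 54.8 and 59.7 CPM (lowest, median, highest) in Ctrl chow. Its 2 lowest libraries were Ctrl HFD replicates 1 and 2, and all groups compared overlapped. The log2 change was 0.18 (95% interval −0.11 to 0.47) for LIRKO against Ctrl on chow, 0.25 (−0.07 to 0.58) on HFD, −0.25 (−0.52 to 0.02) for HFD against chow in Ctrl and −0.18 (−0.52 to 0.17) in LIRKO. The adjusted p was between 0.177 and 0.736 in these comparisons (edgeR).

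Hadha (ENSMUSG00000025745, chr5:30118304-30155162, minus strand) encodes the alpha subunit of the trifunctional protein, which carries out the hydration and the oxidation of long chains. It was at 114, 108 and 115 CPM in LIRKO HFD, at 136, 143, 128 and 124 CPM in LIRKO chow, at 105, 103, 119, 108 and 117 CPM in Ctrl HFD, and at 128, 142 and 168 CPM (lowest, median, highest) in Ctrl chow. In both genotypes every HFD library was below every chow library; in Ctrl 2.13% of all tested genes showed this, and in LIRKO 18.3%. In Ctrl the means were 111 ± 6.96 CPM on HFD and 147 ± 17.0 CPM on chow (SD, n = 5 and 6), so Hadha fell by 24.6% (log2 change −0.41, SE 0.10, 95% interval −0.61 to −0.21, adjusted p = 0.0315, edgeR). In LIRKO the means were 112 ± 4.03 CPM on HFD and 133 ± 8.44 CPM on chow (SD, n = 3 and 4), a log2 change of −0.24 (−0.50 to 0.01, adjusted p = 0.319, edgeR). The diet difference of LIRKO minus that of Ctrl was 0.16 (−0.16 to 0.48, adjusted p = 0.981, edgeR), so a different response of the genotypes was not detected. LIRKO against Ctrl gave −0.14 (−0.35 to 0.07) on chow and 0.02 (−0.22 to 0.26) on HFD.

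The call on Hadha was not stable. It was lost without Ctrl chow replicate 1, 2 or 6 (adjusted p = 0.0707, 0.0597 and 0.0765) and without Ctrl HFD replicate 1 or 2 (adjusted p = 0.084 and 0.0762). It was also lost when only the Ctrl groups were fitted (adjusted p = 0.104), when the LIRKO chow pairs were summed (0.0607), without the filter on low counts (0.0656), and without both Ctrl HFD libraries that stood apart (−0.31, adjusted p = 0.166), while the log2 change stayed between −0.44 and −0.31 over 26 alternatives. The sum of the 9 beta cell markers, most of it Ins1, Ins2 and Iapp, was at 99357, 147859 and 203770 CPM in Ctrl HFD (lowest, median, highest). In Ctrl chow it was at 142351, 197400 and 233678 CPM, so the ranges overlapped. Ctrl HFD replicates 1 and 2 had sums of 203770 and 198605 CPM and Hadha at 105 and 103 CPM. Replicate 3 of that group had a sum of 99357 CPM and Hadha at 119 CPM. Ctrl chow replicates 1 and 6 had the highest sums (233678 and 227444 CPM) and the highest Hadha (166 and 168 CPM). Of these 9 markers, 3 were called lower, where 4.35% of all tested genes were. The part of these markers in the Hadha result was not tested.

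Hadha lies head to head with Hadhb (chr5:30155248-30184593, plus strand), which encodes the beta subunit with the thiolase activity, and their annotated starts are 85 bases apart. The 250 bases before the RefSeq start of Hadha (GRCm38.p6, chr5:30154981-30155230, minus strand) are printed because they overlap the same window of Hadhb (chr5:30155003-30155252, plus strand). The RefSeq start of Hadha lies inside the GENCODE span of the gene, so most of this window does too. It holds no match to AGGTCA, and so no capitals.
Hadha: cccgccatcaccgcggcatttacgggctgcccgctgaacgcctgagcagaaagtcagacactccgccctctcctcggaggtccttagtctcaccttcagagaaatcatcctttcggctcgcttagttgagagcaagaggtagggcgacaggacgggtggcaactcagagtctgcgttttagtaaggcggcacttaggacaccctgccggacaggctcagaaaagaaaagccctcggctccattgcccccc
Hadhb was at 32.7 ± 2.86 CPM in LIRKO HFD, 41.8 ± 0.768 CPM in LIRKO chow, 32.8 ± 8.75 CPM in Ctrl HFD and 44.6 ± 9.73 CPM in Ctrl chow (SD, n = 3, 4, 5 and 6). The ratio of Hadha to Hadhb counts was 3.44 ± 0.188, 3.18 ± 0.219, 3.55 ± 0.838 and 3.37 ± 0.511 in the same 4 groups, and these ratios differed by less than the spread within the Ctrl groups. The LIRKO means on HFD and chow differed by more than the SD of either LIRKO group, with overlapping ranges (3.33 to 3.66 and 2.95 to 3.39).

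Hadh (ENSMUSG00000027984, chr3:131233419-131272101, minus strand) encodes the short-chain hydroxyacyl-CoA dehydrogenase, an abundant beta cell enzyme whose loss in humans causes excess insulin secretion. It was at 455, 282 and 307 CPM in LIRKO HFD, at 424, 447, 313 and 295 CPM in LIRKO chow, at 275, 282, 412, 353 and 475 CPM in Ctrl HFD, and at 395, 525 and 663 CPM (lowest, median, highest) in Ctrl chow. Ctrl chow held the highest libraries, and it overlapped both groups it was compared with. The log2 change was −0.48 (SE 0.20, 95% interval −0.90 to −0.06, adjusted p = 0.192, edgeR) for LIRKO against Ctrl on chow and −0.52 (SE 0.19, −0.91 to −0.13, adjusted p = 0.0692, edgeR) for HFD against chow in Ctrl, so neither passed. DESeq2 passed the second (adjusted p = 0.0401), as did edgeR without Ctrl chow replicate 4 (0.0401) or Ctrl HFD replicate 5 (0.0367), and leaving out Ctrl HFD replicates 1 and 2 brought the change to −0.27 (adjusted p = 0.405). LIRKO against Ctrl on HFD gave −0.05 (−0.51 to 0.42), and HFD against chow in LIRKO gave −0.09 (−0.58 to 0.40). Within LIRKO, the 4 libraries with alpha cell marker sums of 1858 to 3638 CPM had 282 to 313 CPM of Hadh, and the 3 with sums of 409 to 483 CPM had 424 to 455 CPM, while in Ctrl HFD replicates 3 and 4, with sums of 3992 and 4270 CPM, Hadh was at 412 and 353 CPM; the part of these markers in the Hadh values was not tested.

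Pdk4 (ENSMUSG00000019577, chr6:5483351-5496309, minus strand) encodes the kinase that shuts off pyruvate dehydrogenase when fat is burned, and is a textbook PPAR target. It varied more than any other of the 9, with a highest value 36.1 times its lowest over the 18 libraries. It was at 1.36, 13.8 and 19.8 CPM in LIRKO HFD, at 0.71, 0.549, 9.38 and 8.7 CPM in LIRKO chow, at 0.745, 1.82, 10.4, 15.8 and 1 CPM in Ctrl HFD, and at 1.01, 2.22 and 4.58 CPM (lowest, median, highest) in Ctrl chow. High and low libraries stood side by side in 3 of the 4 groups, and all groups overlapped. The log2 change was 1.01 (95% interval −0.86 to 2.89) for LIRKO against Ctrl on chow, 0.96 (−1.12 to 3.04) on HFD, 1.32 (−0.47 to 3.11) for HFD against chow in Ctrl and 1.27 (−0.93 to 3.47) in LIRKO, with adjusted p of 0.589, 0.873, 0.276 and 0.548 (edgeR).

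The genes that Pdk4 resembled most over the 18 libraries were Gcg and Cd14. Gcg encodes glucagon, the hormone of islet alpha cells, and Cd14 is among the macrophage markers listed here. The mean absolute difference of centred log2 CPM was 0.52 for Gcg, 0.52 for Cd14 and 0.55 for Ifi204, beside a mean absolute deviation of 1.45 of Pdk4 itself. Gcg was at 287, 2586 and 3370 CPM in LIRKO HFD, at 116, 104, 1477 and 1670 CPM in LIRKO chow, at 280, 972, 3720, 3965 and 355 CPM in Ctrl HFD, and at 255, 961 and 1634 CPM (lowest, median, highest) in Ctrl chow. The libraries high in Pdk4 within LIRKO HFD, LIRKO chow and Ctrl HFD were also the ones high in Gcg. All 7 alpha cell markers were tested and none was at 0. Their sum was 483, 2878 and 3638 CPM in LIRKO HFD, 411, 409, 1858 and 2030 CPM in LIRKO chow, 465, 1184, 3992, 4270 and 501 CPM in Ctrl HFD, and 425 to 1875 CPM in Ctrl chow. Markers of other cells moved in part the same way. The 7 stellate and fibroblast markers, all tested and none at 0, summed to 14.5, 21.8 and 24.5 CPM in LIRKO HFD, 0.686, 0.624, 10.6 and 8.54 CPM in LIRKO chow, 10.8, 9.96, 66, 48.1 and 7.26 CPM in Ctrl HFD, and 0.895 to 13.3 CPM in Ctrl chow, so they too were highest in the libraries high in Pdk4 within the first 3 groups. The 7 macrophage markers, all tested and none at 0, split in that way in LIRKO chow (96.5, 96.5, 152 and 138 CPM) and Ctrl HFD (181, 169, 241, 237 and 121 CPM) but not in LIRKO HFD (209, 202 and 179 CPM), and they summed to 109 to 182 CPM in Ctrl chow. Cd14 alone was at 1.89, 10.8 and 10.9 CPM (lowest, median, highest) in LIRKO HFD. The 8 endothelial markers split in that way in LIRKO chow (18, 22.1, 177 and 152 CPM) but not in LIRKO HFD (302, 280 and 243 CPM) or Ctrl HFD (284, 308, 166, 225 and 152 CPM). The part of any of these markers in the Pdk4 levels was not tested. In bulk samples, a change in the number of cells of a type and a change in RNA per cell cannot be told apart.

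**Figure D3:**
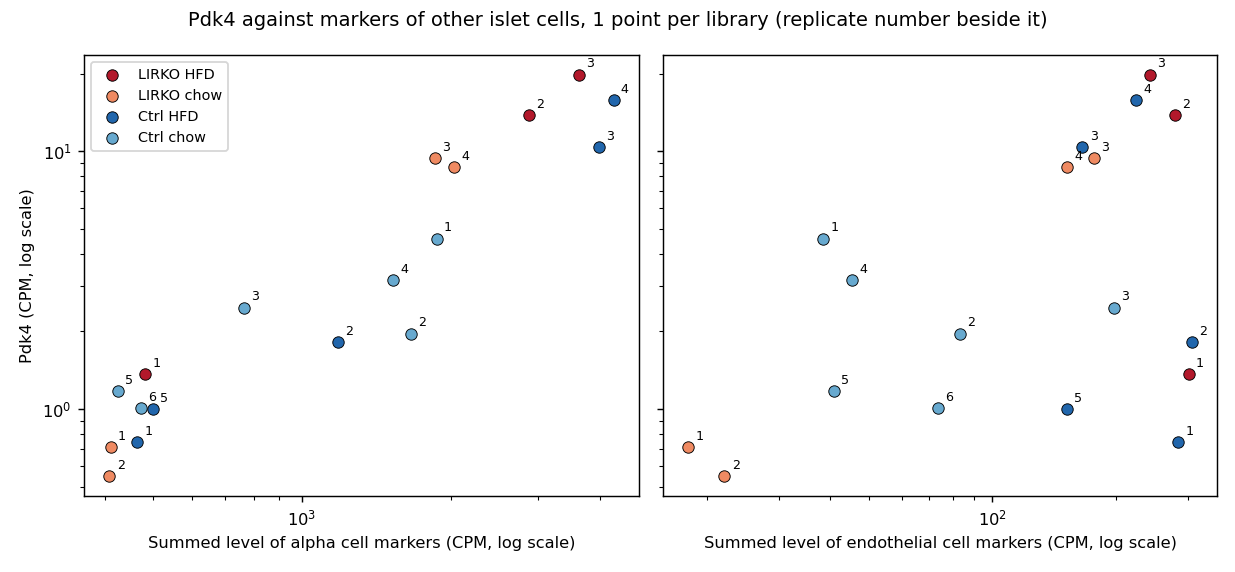
Pdk4 in CPM (y axis, log scale) against the summed CPM of 7 alpha cell markers (left, log scale) and 8 endothelial cell markers (right, log scale), 1 point per library with its replicate number. The libraries with Pdk4 at 8.7 to 19.8 CPM have alpha cell marker sums of 1858 to 4270 CPM. In LIRKO chow the endothelial sums split as Pdk4 does, while in LIRKO HFD and Ctrl HFD the libraries low in Pdk4 include the highest endothelial sums (302 and 308 CPM).

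The 250 bases before the RefSeq start of Pdk4 (GRCm38.p6, chr6:5496279-5496528, minus strand) are printed as the promoter of the most variable of the 9 genes. They hold no AGGTCA on either strand, and so no capitals, which says only that these letters are not in this window.
Pdk4: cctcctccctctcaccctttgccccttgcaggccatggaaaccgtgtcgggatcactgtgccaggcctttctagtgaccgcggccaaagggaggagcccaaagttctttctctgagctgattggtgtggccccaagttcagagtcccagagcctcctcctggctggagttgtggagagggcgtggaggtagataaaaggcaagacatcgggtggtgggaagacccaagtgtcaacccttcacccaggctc

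Acot1 (ENSMUSG00000072949, chr12:84009490-84018371, plus strand) encodes a cytosolic enzyme that cleaves acyl-CoA to free fatty acid, induced by PPAR alpha in mouse liver. It was at 0.377, 1.18 and 0.576 CPM in LIRKO HFD, at 0.171, 0.15, 0.399 and 0.165 CPM in LIRKO chow, at 0.695, 1.02, 0.681, 0.913 and 0.185 CPM in Ctrl HFD, and at 0.0772, 0.312 and 0.553 CPM (lowest, median, highest) in Ctrl chow. These values rest on 3 to 54 reads per library. Both diet pairs overlapped, each through 1 library: LIRKO chow replicate 3 in LIRKO, and Ctrl HFD replicate 5 in Ctrl. HFD against chow gave a log2 change of 1.13 in Ctrl (SE 0.50, 95% interval 0.08 to 2.19, unadjusted p = 0.0371, adjusted p = 0.123, edgeR) and 1.66 in LIRKO (SE 0.62, 0.35 to 2.96, unadjusted p = 0.0158, adjusted p = 0.185, edgeR), so neither passed. LIRKO against Ctrl gave −0.48 (−1.65 to 0.70) on chow and 0.05 (−1.17 to 1.26) on HFD. The closest genes in pattern were Nfkbia, Gadd45g and Gm12216, each with a mean absolute difference of 0.40 log2 units beside 0.81 for Acot1 itself.

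The counts of Acot1 are uncertain because its cluster holds near copies. Of its 3886 windows of 50 bases in the annotated transcripts, 19.2% also occur in other genes, 13.6% in Acot2, 5.2% in Acot5 and 4.4% in Acot3. Acot2 (chr12:83987861-83993873), its neighbouring mitochondrial relative, shares 24.5% of its 2147 windows with Acot1. Acot2 was more abundant, at 6.13 ± 0.203 CPM in LIRKO HFD, 6.31 ± 0.384 CPM in LIRKO chow, 8.12 ± 3.24 CPM in Ctrl HFD and 5.86 ± 0.915 CPM in Ctrl chow (SD, n = 3, 4, 5 and 6). Acot3 and Acot5 did not pass the filter on low counts. How reads that fit several genes were counted is not given in the sources used here.

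Ucp2 (ENSMUSG00000033685, chr7:100493337-100502020, plus strand) encodes a carrier of the inner mitochondrial membrane that is raised by fatty acids in beta cells and whose loss has been reported to increase insulin secretion in mice. It was at 352, 263 and 244 CPM in LIRKO HFD, at 219, 241, 212 and 208 CPM in LIRKO chow, at 198, 290, 179, 204 and 209 CPM in Ctrl HFD, and at 135, 176 and 214 CPM (lowest, median, highest) in Ctrl chow. The group means stood in the order 286 ± 57.4 CPM in LIRKO HFD, 220 ± 14.4 CPM in LIRKO chow, 216 ± 42.7 CPM in Ctrl HFD and 178 ± 27.7 CPM in Ctrl chow (SD), and LIRKO chow and Ctrl HFD differed by less than their spread. Every LIRKO HFD library was above every LIRKO chow library, which 16.1% of all tested genes also showed, and the other pairs overlapped. LIRKO against Ctrl gave a log2 change of 0.31 (95% interval −0.01 to 0.62, adjusted p = 0.288, edgeR) on chow and 0.41 (0.05 to 0.77, adjusted p = 0.536, edgeR) on HFD. HFD against chow gave 0.28 (−0.02 to 0.58, adjusted p = 0.171, edgeR) in Ctrl and 0.38 (0.00 to 0.76, adjusted p = 0.296, edgeR) in LIRKO. All 4 estimates were above 0 and none passed, under any of the 26 alternatives. Of the 50-base windows of Ucp2, 3.53% lie opposite Dnajb13, which matters only if strand was ignored in counting. Ucp3, which ends 6904 bases upstream, was at 0 to 0.447 CPM.

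Beyond the 9, 117 further genes of fatty acid uptake and activation, the carnitine shuttle, mitochondrial and peroxisomal oxidation, thioesterases, pyruvate dehydrogenase control, PPAR targets, PPAR receptors and cofactors, and uncoupling proteins were listed, of which 105 were tested. For LIRKO against Ctrl on chow, 5 of the 105 were higher and 0 lower, where 2.95% of all genes were higher and 2.2% lower. For HFD against chow in Ctrl, 5 were higher and 7 lower, where 5.57% of all genes were higher and 4.35% lower. In the other genotype comparison, on HFD, in the diet comparison within LIRKO and for the interaction, 0 of the 105 passed with edgeR; over all 114 tested genes DESeq2 passed 1, 3 and 0.

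The 5 genes that were higher in LIRKO on chow were Slc25a20, Angptl4, Fgf21, Creb3l3 and Acox2. Slc25a20, which carries acylcarnitines across the inner membrane, was at 50.8, 54.8, 51.8 and 47.9 CPM in LIRKO chow and at 31.6, 34.1 and 42.1 CPM (lowest, median, highest) in Ctrl chow. All LIRKO chow libraries were above all Ctrl chow libraries, which 6.46% of all tested genes also showed. The log2 change was 0.51 (SE 0.10, 95% interval 0.30 to 0.72, adjusted p = 0.00517, edgeR). On HFD Slc25a20 was at 48.6, 48 and 46 CPM in LIRKO and at 34.6, 36.5, 32.4, 37.3 and 35.4 CPM in Ctrl, again without overlap (as for 2.51% of all genes as higher and 2.5% as lower), with a log2 change of 0.43 (SE 0.11, 0.19 to 0.67, adjusted p = 0.128, edgeR) that did not pass. The call on chow held in 25 of 26 alternatives and was lost when the LIRKO chow pairs were summed (adjusted p = 0.0927). Of the 9 named genes, the 2 enzymes on either side of this carrier gave 0.57 (Cpt1a) and 0.15 (Cpt2) in the same comparison, and neither passed.

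The other 4 were low in abundance, and in Ctrl chow Acox2 rested on 0 to 7 reads and Creb3l3 on 1 to 9 reads per library. Angptl4, a secreted inhibitor of lipoprotein lipase, was at 1.67, 1.57, 3.02 and 3.07 CPM in LIRKO chow and at 0.493 to 0.918 CPM in Ctrl chow (log2 change 1.67, SE 0.41, adjusted p = 0.0233, edgeR). Gcg in the same LIRKO chow libraries was at 116, 104, 1477 and 1670 CPM. In LIRKO HFD Angptl4 was at 1.07, 6.54 and 5.16 CPM and Gcg at 287, 2586 and 3370 CPM. In Ctrl HFD replicate 3 Angptl4 was at 1.27 CPM with Gcg at 3720 CPM. The part of alpha cells in the Angptl4 values was not tested. Fgf21, a fasting hormone of the liver, was at 0.878 to 1.5 CPM in LIRKO chow and at 0.37 to 0.792 CPM in Ctrl chow (log2 change 1.20, adjusted p = 0.0249, edgeR). Creb3l3, a transcription factor that acts with PPAR alpha in liver, was at 0.2 to 0.679 CPM in LIRKO chow and at 0.0308 to 0.279 CPM in Ctrl chow (log2 change 1.72, adjusted p = 0.0371, edgeR). Acox2, a peroxisomal oxidase of branched chains, was at 0.319 to 0.923 CPM in LIRKO chow and at 0 to 0.205 CPM in Ctrl chow (log2 change 2.67, adjusted p = 0.023, edgeR). On HFD, LIRKO against Ctrl gave 1.30 for Angptl4, 0.79 for Fgf21, 0.91 for Creb3l3 and 0.28 for Acox2, and none passed. Acox2 was at 0.029 to 0.1 CPM in LIRKO HFD. None of the 4 calls on chow held when the LIRKO chow pairs were summed, and without 1 of the LIRKO chow replicates 1, 2, 3 or 4 the 5 calls came to 2, 3, 2 and 3. Of the 28 tested genes listed as PPAR targets, 4 were higher and 0 lower on chow, where 2.95% of all tested genes were higher and 2.2% lower, and the median log2 change was 0.19 against −0.023 over all genes; nothing particular to this list was tested.

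In Ctrl on HFD against chow, the genes that were lower included Acsl5, which activates fatty acids (−0.62), Crot, which makes carnitine esters in peroxisomes (−0.65), Abcd3 and Scp2, a peroxisomal transporter and a thiolase and lipid carrier (−0.51 and −0.57), Etfa, which passes electrons from acyl-CoA dehydrogenases (−0.50), Mpc1, the pyruvate carrier (−0.83), and Pparg, the receptor best known from fat cells (−0.52). Their adjusted p lay between 0.0243 and 0.0481 (edgeR). Crot was at 27.5, 27, 40.1, 37.8 and 36.2 CPM in Ctrl HFD and at 37.5, 55.7 and 61 CPM (lowest, median, highest) in Ctrl chow. The 15 tested genes of peroxisomal oxidation had a median log2 change of −0.39, with 3 lower and 1 higher, against a median of 0.043 over all genes, and the 19 of mitochondrial oxidation one of −0.18, with 2 lower and 0 higher, Hadha among them. Over all tested genes 4.35% were lower and 5.57% higher in this comparison, and nothing particular to these lists was tested.

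The 5 that were higher in Ctrl on HFD were Fabp4, a fatty acid binding protein (2.33), Mgll, a monoacylglycerol lipase (1.95), Acaa1a, a peroxisomal thiolase (0.40), Crebbp, a coactivator (0.68), and Slc25a27, an uncoupling protein relative (0.95). Fabp4 was at 13.3, 19.4, 5.77, 12.5 and 4.52 CPM in Ctrl HFD and at 0.832, 1.44 and 4.51 CPM (lowest, median, highest) in Ctrl chow. The 8 endothelial cell markers, all tested and none at 0, summed to 284, 308, 166, 225 and 152 CPM in Ctrl HFD and to 38.5, 59.3 and 198 CPM (lowest, median, highest) in Ctrl chow. Of these 8 markers, 2 were called higher, where 5.57% of all tested genes were. Their part in the Fabp4 and Mgll values was not tested. All 13 calls of this comparison, Hadha included, were lost when only the Ctrl groups were fitted, when the LIRKO chow pairs were summed and when Ctrl HFD replicates 1 and 2 were left out. Leaving out 1 library ended all 13 for Ctrl chow replicates 1 and 6 and Ctrl HFD replicates 1 and 2, and all but Crot for Ctrl chow replicate 2. Without 1 of the other libraries 6 to 13 held, and without the filter on low counts 5 held.

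**Figure D4:**
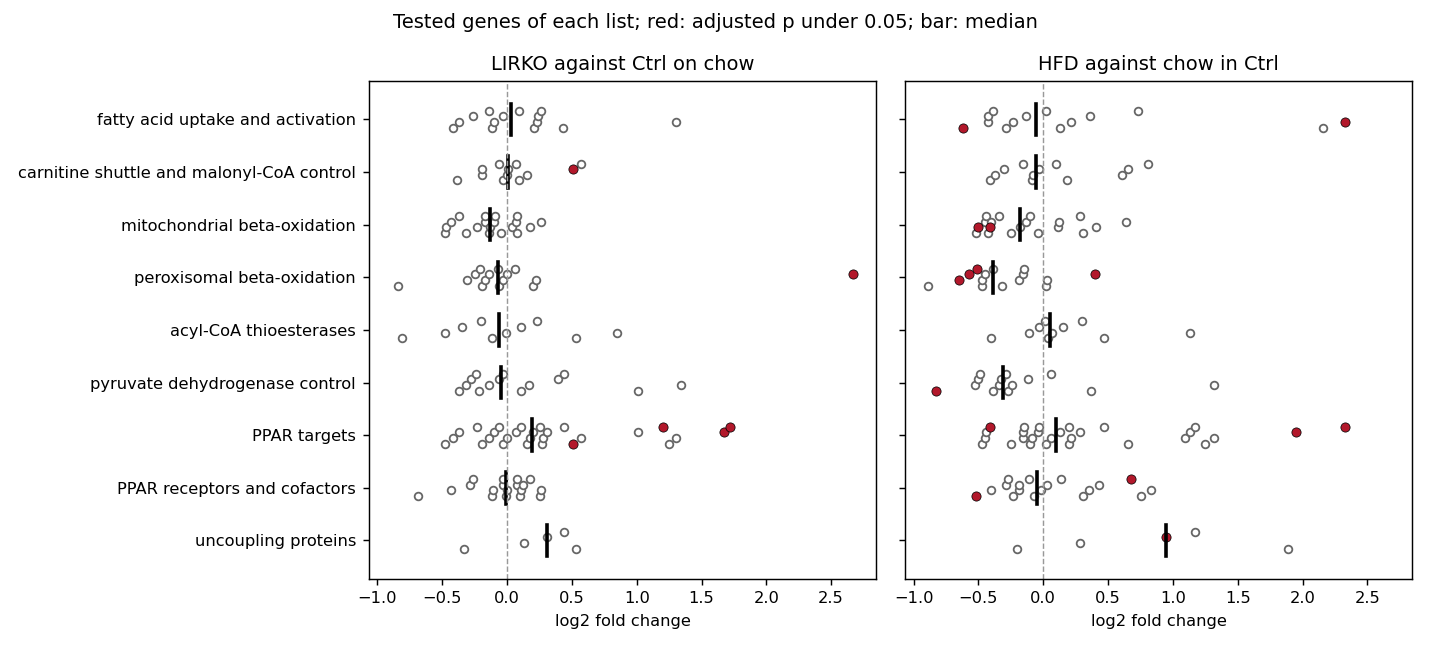
Fitted log2 fold change (x axis) of the tested genes in 9 lists (y axis), for LIRKO against Ctrl on chow (left) and HFD against chow in Ctrl (right); lists share genes, red points passed an adjusted p of 0.05 and bars are list medians. On chow the red points are to the right of 0, and in the diet comparison the peroxisomal list has its median at −0.39.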

How the data were processed

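The deposited table holds counts, which the authors made as whole numbers of reads per Ensembl gene for 18 libraries. STAR, featureCounts and GRCm38 are named in the submitters' processing notes, and the kit was directional per the labels' protocols. Not given in the sources used here: versions, annotation release, strand setting and the treatment of reads that fit several genes. Symbols and coordinates come from GENCODE M21 (52403 of 53090 IDs matched; the others held at most 0.102% of a library).

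Genes were tested with edgeR 4.0.16 in R 4.3.3: filterByExpr on the groups, TMM scaling, and glmQLFit and glmQLFTest with a coefficient for each group and the dispersion shared over all 18 libraries (common coefficient of biological variation 0.314). Two-sided p-values received Benjamini-Hochberg adjustment over 19284 genes within each of 5 comparisons, and intervals cover 95%. The range of depths is given in the report, and precision also depends on 3 to 6 libraries per group. The script was tested on simulated data.

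The genes and lists were chosen with earlier results of these data known. Of the lists, up to 5 genes that passed are named per list and comparison, by smallest p, with examples given in values. Patterns were compared among tested genes with a mean log2 CPM of at least 1. Windows of 50 bases came from M21 transcripts, and promoters from RefSeq (GRCm38.p6), where all 9 genes matched. Alternatives were DESeq2 1.42.0 and its size factors, no filter and a stricter filter (1 CPM in 3 libraries), fits of the compared groups alone, LIRKO chow pairs summed, and libraries left out. Summing the pairs while leaving out Ctrl HFD replicates 1 and 2, and the order by longest coding transcript, were added after the data were seen.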

Additional observations from a re-analysis of the deposited data

Results flagged for a closer look

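In groups of 4 to 6 libraries, a library far from the others was looked for in 27 pairs of gene and group, where chance gives about 1 in 20, and 2 were found. Acot1 in LIRKO chow was at 0.399 CPM in replicate 3, and the next highest library was at 0.171 CPM, a gap of 0.913 of the whole range. That value rests on 20 reads. Ucp2 in Ctrl HFD was at 290 CPM in replicate 2, and the next highest library was at 209 CPM, a gap of 0.729 of the range. Replicate 2 is 1 of the 2 Ctrl HFD libraries that stood apart, and the other, replicate 1, had 198 CPM of Ucp2.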

How the results depend on the processing

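No paired analysis was possible because the labels give no replicate numbers, pairs or animals, and the numbers here only name libraries. The counts of genes that passed moved with several settings. For LIRKO against Ctrl on chow (993 genes) the count was 1649 with DESeq2, 1653 with only the 2 groups fitted, 193 with LIRKO chow pairs summed, 1765 without Ctrl HFD replicates 1 and 2, and 363 with both changes, and 431 to 1126 with 1 library left out. For LIRKO against Ctrl on HFD (98) the same settings gave 316, 19, 54 and 193, with both changes within 1.5 times, and 10 to 162. For HFD against chow in Ctrl (1914) they gave 3959, 1, 114, 34 and 1, with 457 without the filter, and 69 to 3877. For HFD against chow in LIRKO (392) they gave 1059, 3403, 7, 1191 and 59, with 250 without the filter, and 55 to 502. For the interaction (1) DESeq2 gave 42, pairs summed 0, both libraries left out 8, both changes 2, and 1 library left out 0 to 3.

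Of the 9 genes, LIRKO against Ctrl on chow gave 1 call instead of 0 (Cpt1a) with only the groups fitted and without Ctrl HFD replicates 1 and 2, and 0 to 1 with 1 library left out. HFD against chow in Ctrl gave 2 calls with DESeq2, 0 without the filter, with only the groups fitted, with pairs summed, with both libraries left out and with both changes, and 0 to 2 with 1 left out. HFD against chow in LIRKO gave 1 (Cpt1a, lower) with only the groups fitted.

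Signs turned only for log2 changes that had not passed. Without Ctrl HFD replicates 1 and 2, with or without summed pairs, Cpt1a turned to −0.06 and Hadha to −0.03 for LIRKO against Ctrl on HFD, Cpt1a to 0.20 and Ppara to 0.06 for HFD against chow in Ctrl, and the Acadl interaction to −0.14. Cpt2 for LIRKO against Ctrl on HFD turned to 0.01 with DESeq2 or its size factors, 0.03 without the filter and 0.00 with pairs summed. With 1 library left out, signs turned for LIRKO against Ctrl on HFD in Cpt2 (range −0.06 to 0.11), Acot1 (−0.53 to 0.35) and Hadh (−0.29 to 0.09), for HFD against chow in LIRKO in Hadh (−0.33 to 0.04), and for the interaction in Pdk4 (−0.67 to 0.71), Acot1 (−0.05 to 0.98), Ucp2 (−0.07 to 0.23) and Acadl (−0.03 to 0.17). The causes of these changes were not tested. Counts of 1 to 54 reads limit Ppara and Acot1.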
